A study of Homo sapiens with 12 samples.

Results

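The expression of 10 genes of the vascular endothelial growth factor (VEGF) and angiopoietin systems was followed in EA.hy 926 cells. The set was a list fixed by name: the VEGF receptor genes KDR, FLT1 and FLT4, the co-receptor genes NRP1 and NRP2, the angiopoietin receptor genes TEK and TIE1, and the ligand genes VEGFA, VEGFC and PGF. These genes were chosen with earlier results of these data known. Their counts beside the share of all genes are therefore a description, not an unbiased test. All 10 were among the 18417 genes measured by the array, each read from its brightest probe set with 1 gene symbol, and no gene was removed for a low level. EA.hy 926 is a human hybrid line whose parents were endothelial cells of the umbilical vein and the lung carcinoma line A549. The 4 groups held 3 biological replicates each, with 1 array per replicate. Lo pemetrexed cells had been adapted to 23 nM folic acid and were exposed to 0.5 uM pemetrexed for 48 h, and Lo control cells had the same adaptation without the drug. Hi pemetrexed cells were grown in parallel with 9 uM folic acid and received the same dose for the same time, and Hi control cells were grown at 9 uM without the drug. All cultures were confluent and had their medium changed 24 h before treatment. Pemetrexed is an antifolate that blocks thymidylate and purine synthesis. The Lo cells were a separately adapted culture of 1 line, so a difference between Lo and Hi cells also holds any other difference between these cultures.

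VEGF ligands act on receptor tyrosine kinases of the endothelial surface. KDR (VEGFR2) is the main signalling receptor of VEGFA in blood vessels, FLT1 (VEGFR1) binds VEGFA and PGF tightly and can act as a decoy, and FLT4 (VEGFR3) binds VEGFC and is best known from lymphatic vessels. The neuropilins NRP1 and NRP2 bind VEGF ligands and class 3 semaphorins and present the ligands to the receptor kinases. TEK (TIE2) is the receptor of the angiopoietins, which keep vessels quiescent or destabilise them, and TIE1 is its orphan partner.

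Levels are RMA values on a log2 scale, on which a difference of 1 is a doubling, and they were not compared between genes because probe sets differ in brightness. The array medians lay between 7.24 and 7.33. No detection call was used, so whether a dim gene or marker was present at all could not be judged. In each control group the array with the replicate number 3 went against its label. On the first principal component of all genes, with 61.1% of the variance, Lo controls 1 and 2 scored 7.18 and 6.75, while the one numbered 3 scored -19.27. Hi control 3 scored 8.94, and the other 5 Hi arrays scored between -20.05 and -17.77. Both arrays kept their labels, and values over the remaining 10 arrays are given beside those over 12. The 2 arrays were picked from these same expression values, so leaving them out favours a difference between Lo and Hi controls. It also changes the estimate of the spread that all comparisons share. In Lo against Hi pemetrexed cells the changes stayed the same, but 5106 genes were called in place of 4107. Calls over 10 arrays are therefore not independent support in the other comparisons either. Differences were tested with limma in 1 model over all arrays, with Benjamini-Hochberg adjustment over all genes, and a gene was called at an adjusted p under 0.05. Errors after a log2 change are standard errors (SE) of the model.

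**Figure D1:**
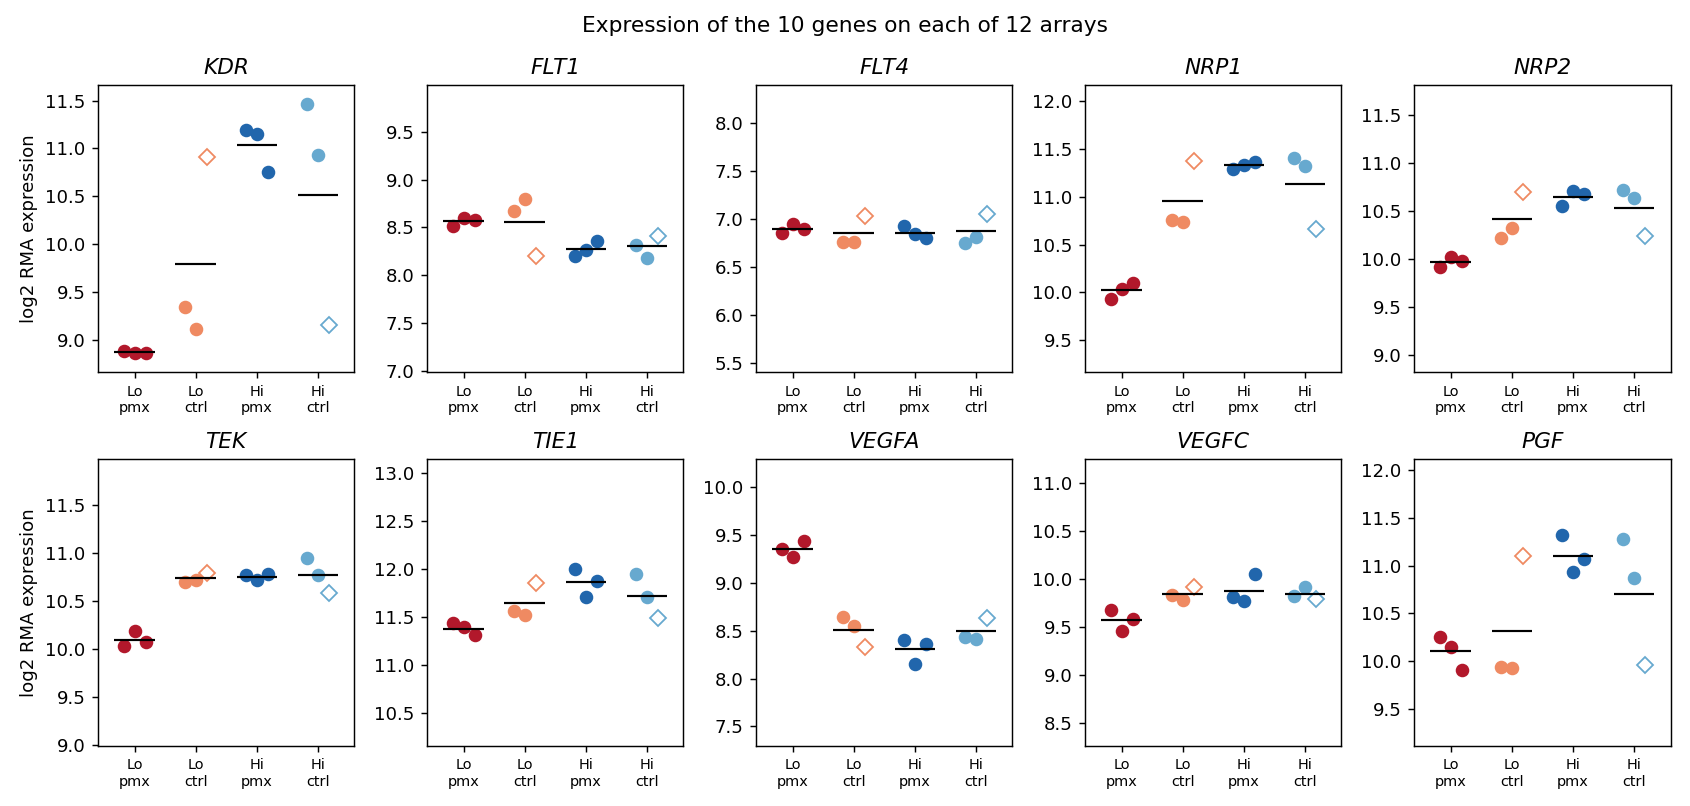
Log2 RMA expression of the 10 genes on each of the 12 arrays, by group (pmx, pemetrexed; ctrl, control), with the group mean as a bar and an axis span of 3 log2 units in every panel. Open diamonds mark the arrays labelled replicate 3 of the controls. The 3 Lo pemetrexed arrays sit apart at the top for VEGFA and at the bottom for TEK and NRP1, while for KDR and PGF each open diamond sits with the arrays of the other folate level.

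The effect of pemetrexed under folate restriction was read from the Lo pemetrexed and Lo control arrays. VEGFA, the main growth factor for blood vessels, rose 1.81-fold. The angiopoietin receptor TEK fell to 0.639 times its Lo control level, and the co-receptor NRP1 fell to 0.525 times. The other 7 genes did not pass the test. The 3 called genes were 3 of 10, where 10.7% of all genes were called. The 1 higher gene compares with 5.60% of all genes and the 2 lower genes with 5.14%. Over the remaining 10 arrays NRP2 also passed, which made 4 of 10, against 11.0% of all genes, with 1 higher (5.21% of all genes) and 3 lower (5.74%). The groups did not overlap, with all 12 arrays, for 1 higher member (15.7% of all genes) and 6 lower members (14.1%).

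VEGFA stood at 9.36, 9.27 and 9.44 on the Lo pemetrexed arrays, against 8.64, 8.54 and 8.33 on the Lo control arrays. The groups were separated by more than their spread, with every treated array above every control array. The change was 0.85 ± 0.10 (SE) on the log2 scale (limma adjusted p = 2.20e-04), and 0.76 ± 0.09 over 10 arrays (limma adjusted p = 2.01e-04). VEGFC, the ligand of FLT4, ranged from 9.46 to 9.67 on Lo pemetrexed arrays and from 9.79 to 9.92 on Lo control arrays. Its change of -0.28 ± 0.09 did not pass (limma adjusted p = 0.0663), nor did -0.24 ± 0.10 over 10 arrays (limma adjusted p = 0.161). With the replicate number as a block over those 10 arrays it passed, at -0.29 ± 0.09 (limma adjusted p = 0.0409). PGF, a ligand of FLT1, stood at 10.26, 10.15 and 9.91 on Lo pemetrexed arrays, against 9.94, 9.93 and 11.10 on Lo control arrays. The groups overlapped, and the high control was the array labelled replicate 3. The PGF change was -0.21 ± 0.33 with all arrays and 0.17 ± 0.14 without both arrays, neither of which passed.

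Among the receptors, TEK stood at 10.03, 10.18 and 10.07 on the Lo pemetrexed arrays, against 10.70, 10.72 and 10.79 on the Lo control arrays. All treated arrays were below all controls, and for this gene Lo control 3 was not apart from the other controls. TEK fell by 0.65 ± 0.09 on the log2 scale (limma adjusted p = 5.79e-04), and the value was -0.62 ± 0.08 over 10 arrays (limma adjusted p = 3.94e-04). TIE1, its partner, ranged from 11.31 to 11.43 on Lo pemetrexed arrays and from 11.52 to 11.85 on Lo control arrays. The TIE1 change of -0.26 ± 0.12 did not pass (limma adjusted p = 0.212), nor did -0.16 ± 0.10 over 10 arrays.

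NRP1 stood at 9.94, 10.04 and 10.10 on the Lo pemetrexed arrays, against 10.76, 10.74 and 11.38 on the Lo control arrays. Every treated array was below every control, and the array labelled Lo control replicate 3 was the highest control. The change was -0.93 ± 0.19 (limma adjusted p = 0.00731) and -0.72 ± 0.07 over 10 arrays (limma adjusted p = 9.00e-05). NRP2 stood at 9.92, 10.02 and 9.98 on the Lo pemetrexed arrays, against 10.22, 10.32 and 10.70 on the Lo control arrays. These groups did not overlap either, but the NRP2 change of -0.44 ± 0.13 missed the threshold (limma adjusted p = 0.0526). Over 10 arrays it passed at -0.30 ± 0.08 (limma adjusted p = 0.0277). The dimmer of the 2 NRP2 probe sets gave -0.44 ± 0.21 with all arrays (limma adjusted p = 0.234 over all probe sets).

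KDR stood at 8.89, 8.86 and 8.86 on the Lo pemetrexed arrays, the narrowest spread of any group for this gene, against 9.34, 9.12 and 10.91 on the Lo control arrays. All treated arrays were below all controls, but the control spread was wide (SD 0.979, n = 3). The KDR change was -0.92 ± 0.52 (limma adjusted p = 0.324), and without both arrays it was -0.36 ± 0.16 (limma adjusted p = 0.190). FLT1 stood at 8.52, 8.59 and 8.58 on Lo pemetrexed arrays, against 8.67, 8.80 and 8.20 on Lo control arrays, and the groups overlapped. Its change was 0.01 ± 0.13 with all arrays and -0.17 ± 0.08 without both, and neither passed. FLT4 ranged from 6.86 to 6.95 on Lo pemetrexed arrays and from 6.76 to 7.04 on Lo control arrays, with a change of 0.05 ± 0.10, and of 0.14 ± 0.07 over 10 arrays, neither of which passed.

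**Figure D2:**
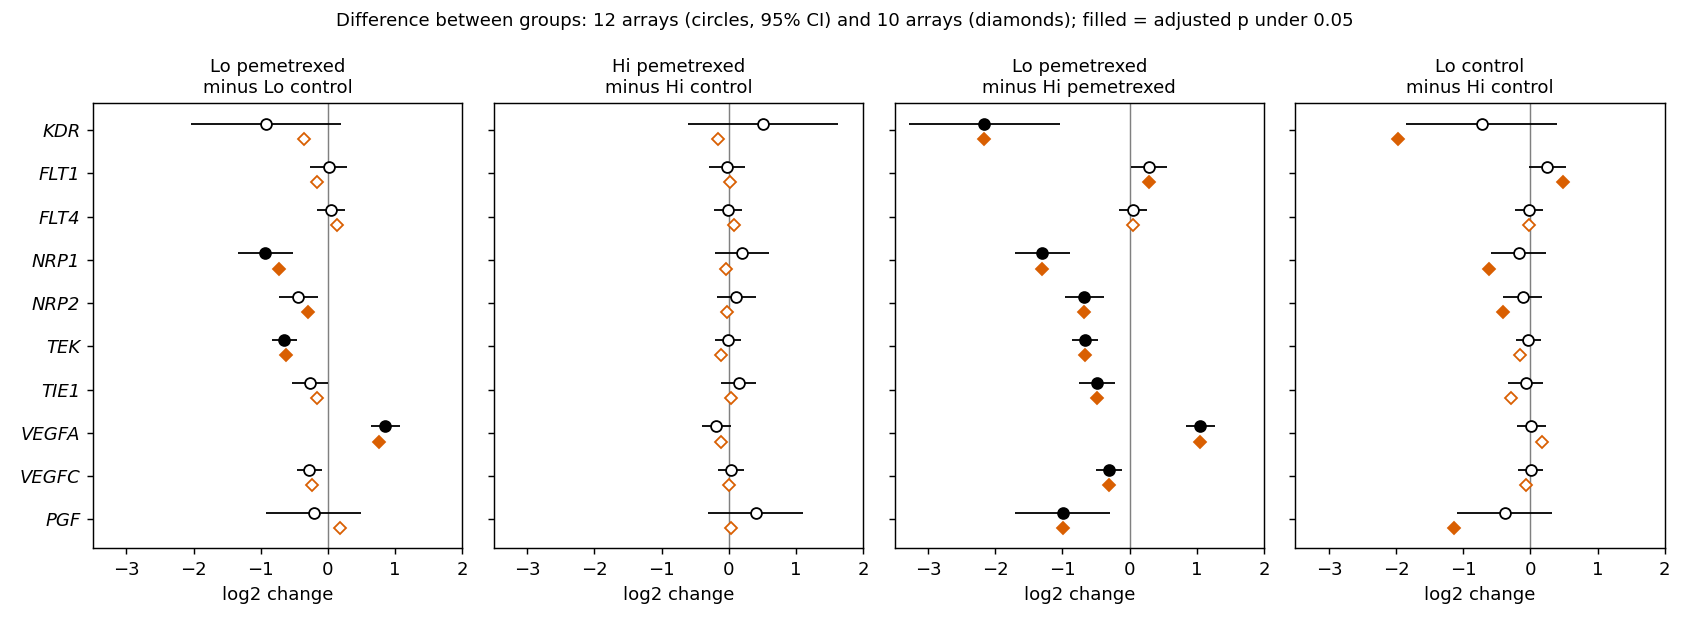
Log2 change of each gene in 4 comparisons, with the group named first on top of the change. Black circles with 95% confidence intervals come from the fit to 12 arrays and orange diamonds from the fit to 10 arrays, and filled symbols mark an adjusted p under 0.05. Lo pemetrexed cells differ from Hi pemetrexed cells in 8 of the 10 genes with 12 arrays, and the controls differ by folate level only in the fit to 10 arrays, for KDR, FLT1, NRP1, NRP2 and PGF.

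The drug effect at the standard folate level was read from the Hi pemetrexed and Hi control arrays. No member passed the test, and 0% of all genes were called by limma, with 266 of 18417 genes at an unadjusted p under 0.05. Over the remaining 10 arrays the call count was also 0, with 335 genes at an unadjusted p under 0.05. VEGFA stood at 8.40, 8.16 and 8.36 on Hi pemetrexed arrays, against 8.44, 8.41 and 8.64 on Hi control arrays. The treated arrays were all below the controls by a small margin, the 1 member whose groups did not overlap (2.96% of all genes lower and 2.48% higher without overlap), and the change of -0.19 ± 0.10 did not pass (limma adjusted p = 1.000). TEK stood at 10.77, 10.72 and 10.78 on Hi pemetrexed arrays, against 10.95, 10.78 and 10.58 on Hi control arrays, with overlapping groups and a change of -0.02 ± 0.09. NRP1 stood at 11.29, 11.33 and 11.36 on Hi pemetrexed arrays, against 11.40, 11.33 and 10.66 on Hi control arrays, where the low control was the array labelled replicate 3. The NRP1 change was 0.20 ± 0.19, and -0.04 ± 0.07 without both arrays. For these genes the 95% confidence interval over 12 arrays ran from -0.41 to 0.03 for VEGFA, from -0.21 to 0.18 for TEK and from -0.21 to 0.61 for NRP1. KDR had the widest interval in this comparison, from -0.61 to 1.63, and from -0.51 to 0.17 over 10 arrays.

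The response of Lo cells was set against that of Hi cells by the interaction, the Lo response minus the Hi response. VEGFA, TEK and NRP1 passed this test, 3 of 10 genes against 4.81% of all genes, with 1 positive difference (2.57% of all genes) and 2 negative ones (2.24%). For VEGFA the Lo response exceeded the Hi response by 1.04 ± 0.14 log2 units (limma adjusted p = 0.00173). For TEK the difference was -0.63 ± 0.12 (limma adjusted p = 0.0138), and for NRP1 it was -1.13 ± 0.27 (limma adjusted p = 0.0325). Over 10 arrays these differences were 0.88 ± 0.13, -0.51 ± 0.11 and -0.69 ± 0.11, and all 3 passed, against 4.16% of all genes (2.02% positive and 2.14% negative). The NRP1 call was lost without any 1 of the pemetrexed arrays or without the array labelled Lo control replicate 3 (limma adjusted p up to 0.0774). NRP2 (-0.56 ± 0.19), TIE1 (-0.41 ± 0.17), VEGFC (-0.31 ± 0.12), KDR (-1.43 ± 0.73), PGF (-0.62 ± 0.46), FLT1 (0.04 ± 0.18) and FLT4 (0.06 ± 0.14) did not pass. Over 10 arrays none of these passed either, and most values were smaller or turned in sign. The difference was -0.19 ± 0.22 for KDR, -0.27 ± 0.11 for NRP2, -0.20 ± 0.14 for TIE1 and -0.25 ± 0.14 for VEGFC. It was positive for PGF (0.15 ± 0.20) and negative for FLT1 (-0.19 ± 0.11), opposite to the signs with all arrays, and 0.06 ± 0.10 for FLT4.

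Low-folate and replete cells under the drug were compared by Lo pemetrexed against Hi pemetrexed arrays, none of which was out of place. This comparison shares its Lo pemetrexed arrays with the drug comparison in Lo cells, so the results of both are not independent. In it 8 of the 10 genes passed, 1 higher and 7 lower, where 22.3% of all genes were called, 11.3% higher and 11.0% lower. Over 10 arrays FLT1 passed as well, 9 of 10 against 27.7% of all genes, with 2 higher (13.7%) and 7 lower (14.0%). The groups did not overlap for 2 higher members (18.6% of all genes) and 7 lower members (18.7%). The median change over the 10 genes was -0.57, and over all genes it was 0.01. KDR had the largest difference of the set, at 0.223 times the Hi pemetrexed level, followed by NRP1 at 0.405 times, while VEGFA was 2.07-fold higher.

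KDR stood at 8.89, 8.86 and 8.86 on Lo pemetrexed arrays, against 11.19, 11.15 and 10.76 on Hi pemetrexed arrays, and the groups were far apart. The change was -2.16 ± 0.52 (limma adjusted p = 0.00983), and it passed without any 1 array (adjusted p up to 0.0361). FLT1, which shares the ligand VEGFA with KDR, had the opposite sign. It stood at 8.52, 8.59 and 8.58 on Lo pemetrexed arrays, against 8.20, 8.27 and 8.36 on Hi pemetrexed arrays. Every Lo array was above every Hi array, but the change of 0.29 ± 0.13 did not pass with all arrays (limma adjusted p = 0.129). It passed over the 10 arrays, which leave the out-of-place controls out of the shared estimate of the spread (SE 0.07, limma adjusted p = 0.00981). FLT4 differed by 0.04 ± 0.10 and did not pass. Over the 12 arrays it ranged from 6.75 to 7.06, below the lowest array median of 7.24. For so dim a gene, an absent signal could not be told from an unchanged level in any of the comparisons.

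Both co-receptors were lower in Lo pemetrexed than in Hi pemetrexed cells. NRP1 changed by -1.30 ± 0.19 (limma adjusted p = 5.51e-04). NRP2 stood at 9.92, 10.02 and 9.98 on Lo pemetrexed arrays, against 10.55, 10.71 and 10.68 on Hi pemetrexed arrays, a change of -0.67 ± 0.13 (limma adjusted p = 0.00349). Its dimmer probe set gave -0.82 ± 0.21 and also passed. Both angiopoietin receptors were lower as well, TEK by -0.66 ± 0.09 (limma adjusted p = 3.24e-04) and TIE1 by -0.48 ± 0.12 (limma adjusted p = 0.0127). TIE1 ranged from 11.31 to 11.43 on Lo pemetrexed arrays and from 11.71 to 12.0002 on Hi pemetrexed arrays. The TIE1 call was lost without Hi pemetrexed replicate 1 or Lo pemetrexed replicate 3 (limma adjusted p up to 0.0517).

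Of the ligands, VEGFA was higher by 1.05 ± 0.10 (limma adjusted p = 4.32e-05), with the Lo pemetrexed arrays between 9.27 and 9.44 and the Hi pemetrexed arrays between 8.16 and 8.40. PGF stood at 10.26, 10.15 and 9.91 on Lo pemetrexed arrays, against 11.32, 10.93 and 11.06 on Hi pemetrexed arrays. The groups did not overlap, and the PGF change was -0.998 ± 0.33 (limma adjusted p = 0.0452). Its call was lost without any 1 of the 6 pemetrexed arrays or Hi control replicate 2 (limma adjusted p up to 0.142), and over 10 arrays it passed with an SE of 0.13 (limma adjusted p = 8.14e-05). VEGFC ranged from 9.46 to 9.67 on Lo pemetrexed arrays and from 9.77 to 10.05 on Hi pemetrexed arrays, a change of -0.31 ± 0.09 (limma adjusted p = 0.0240). The VEGFC call was lost without Hi pemetrexed replicate 3 or without Lo pemetrexed replicates 2 or 3 (limma adjusted p up to 0.1001).

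Low folate without the drug was examined by Lo control against Hi control arrays. With all 12 arrays no member passed, and limma called 0% of all genes, with 387 at an unadjusted p under 0.05. No member had groups without overlap, against 2.14% of all genes higher and 3.61% lower. Over 10 arrays, with 2 arrays in each control group, 5 of the 10 members passed, against 7.17% of all genes. Of these 1 was higher, against 3.67% of all genes, and 4 were lower, against 3.50%. The 2 arrays left out were picked from these same values, where they lay with the other folate level. Leaving them out favours a folate difference, so the calls over 10 arrays are not an independent test of it.

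KDR carried the widest gap. It stood at 9.34, 9.12 and 10.91 on the arrays labelled Lo control 1, 2 and 3, against 11.47, 10.93 and 9.16 on those labelled Hi control 1, 2 and 3. The array labelled replicate 3 in each group lay in the range of the other folate level. The KDR change was -0.73 ± 0.52 with all arrays (limma adjusted p = 1.000) and -1.97 ± 0.17 over 10 arrays (limma adjusted p = 3.48e-05). PGF stood at 9.94, 9.93 and 11.10 on Lo control arrays, against 11.28, 10.87 and 9.96 on Hi control arrays, with the same 2 arrays out of place. Its change was -0.38 ± 0.33 with all arrays and -1.14 ± 0.15 over 10 arrays (limma adjusted p = 8.22e-04).

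FLT1 stood at 8.67, 8.80 and 8.20 on Lo control arrays, against 8.32, 8.18 and 8.41 on Hi control arrays. Its change was 0.25 ± 0.13 with all arrays and 0.48 ± 0.09 over 10 arrays (limma adjusted p = 0.00566), opposite in sign to that of KDR. NRP1 changed by -0.17 ± 0.19 with all arrays and by -0.62 ± 0.08 over 10 arrays (limma adjusted p = 7.22e-04). NRP2 changed by -0.12 ± 0.13 with all arrays and by -0.40 ± 0.09 over 10 arrays (limma adjusted p = 0.0130). VEGFA was at 0.01 ± 0.10 with all arrays and at 0.17 ± 0.10 over 10 arrays (limma adjusted p = 0.427), and did not pass. TEK (-0.15 ± 0.09), TIE1 (-0.29 ± 0.11), VEGFC (-0.06 ± 0.11) and FLT4 (-0.02 ± 0.08) did not pass over 10 arrays either. With the replicate number as a block over those 10 arrays TIE1 passed, with an SE of 0.09 (limma adjusted p = 0.0461), and the other 3 did not.

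Over 10 arrays the group means had the same order for KDR, NRP1 and TEK, and another order for VEGFA. The steps that passed the test differed between these members. Over 10 arrays the KDR means were 8.87 in Lo pemetrexed, 9.23 in Lo control, 11.03 in Hi pemetrexed and 11.20 in Hi control cells. The step between the Lo and the Hi groups was past the test, and the steps within a folate level were not. NRP1 means were 10.03 in Lo pemetrexed, 10.75 in Lo control, 11.33 in Hi pemetrexed and 11.36 in Hi control cells. For NRP1 both the drug step in Lo cells and the folate step passed over 10 arrays. TEK means were 10.09 in Lo pemetrexed, 10.71 in Lo control, 10.76 in Hi pemetrexed and 10.86 in Hi control cells, while VEGFA means were 9.36 in Lo pemetrexed, 8.59 in Lo control, 8.31 in Hi pemetrexed and 8.42 in Hi control cells. Of the 4 comparisons between a pair of groups, TEK and VEGFA passed only in the 2 with Lo pemetrexed cells.

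Upstream sequence is shown for 4 genes. KDR and PGF were lower in Lo than in Hi pemetrexed cells, and FLT1 had the opposite sign to KDR there. TEK was lower in Lo pemetrexed than in both Lo control and Hi pemetrexed cells. RefSeq promoter windows on GRCh38.p14 were matched by symbol for 7 of the 10 genes (KDR, FLT1, NRP2, TEK, TIE1, VEGFC and PGF). The 250 bases before the annotated start are given 5′ to 3′ on the strand of the gene, for TEK and PGF before the more upstream of 2 annotated starts. Capitals mark the SP1/KLF box GGGCGG and the ETS cores AGGAAG and CGGAAG, on either strand. ETS factors are transcription factors that many endothelial genes depend on.
KDR (chr4:55125596-55125845, minus strand): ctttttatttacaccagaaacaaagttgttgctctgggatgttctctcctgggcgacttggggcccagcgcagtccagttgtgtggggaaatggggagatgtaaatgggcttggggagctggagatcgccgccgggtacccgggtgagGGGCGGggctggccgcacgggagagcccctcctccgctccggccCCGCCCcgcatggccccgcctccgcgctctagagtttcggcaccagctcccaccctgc
FLT1 (chr13:28495129-28495378, minus strand): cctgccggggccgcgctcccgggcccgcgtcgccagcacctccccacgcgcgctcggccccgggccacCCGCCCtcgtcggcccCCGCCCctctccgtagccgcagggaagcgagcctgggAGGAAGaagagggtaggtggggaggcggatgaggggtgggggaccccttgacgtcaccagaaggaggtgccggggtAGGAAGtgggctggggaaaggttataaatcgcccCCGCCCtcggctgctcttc
PGF (chr14:74955765-74956014, minus strand): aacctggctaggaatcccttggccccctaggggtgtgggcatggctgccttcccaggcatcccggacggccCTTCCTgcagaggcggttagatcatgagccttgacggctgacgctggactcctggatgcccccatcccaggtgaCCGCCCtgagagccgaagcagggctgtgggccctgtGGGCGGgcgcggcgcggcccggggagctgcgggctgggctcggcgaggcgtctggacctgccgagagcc
TEK (chr9:27108975-27109224, plus strand): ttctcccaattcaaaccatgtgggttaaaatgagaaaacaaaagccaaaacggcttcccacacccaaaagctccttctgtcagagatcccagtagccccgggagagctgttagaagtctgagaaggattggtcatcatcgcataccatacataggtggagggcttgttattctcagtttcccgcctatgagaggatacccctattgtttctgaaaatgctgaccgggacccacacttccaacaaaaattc

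The KDR window held 2 matches to GGGCGG and 0 to either ETS core. The FLT1 window held 3 matches to GGGCGG and 2 to AGGAAG, and the PGF window held 2 and 1. The TEK window, with a GC content of 46.4% against 65.2% for KDR, held 0 matches to any motif searched. Of the 35116 promoter windows of all genes, 42.6% held GGGCGG, 28.7% AGGAAG and 16.5% CGGAAG in the same 250 bases. The HIF site ACGTG (18.5% of all windows), the GATA sites AGATAA (9.17%) and TGATAA (6.66%), the forkhead site TGTTTAC (2.98%) and the AP-1 site TGANTCA (6.57%) had 0 matches in the 7 windows. These matches describe letters, not binding.

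The 3 members that varied most over the 12 arrays were KDR (SD 1.08), PGF (SD 0.580) and NRP1 (SD 0.572). For each, the genes with the most similar profile were found by the root mean square distance between mean-centred log2 levels over the 12 arrays. Nearest to KDR were THSD7A at a distance of 0.162, GMFG at 0.174 and PPP1R16B at 0.199, where the median distance of all genes was 1.04. Nearest to PGF were CMKLR1 (0.107), PLEK2 (0.112) and the protocadherin gene PCDH12 (0.130), against a median of 0.566. Nearest to NRP1 were TM4SF18 (0.0532), ARHGAP18 (0.0893) and PCDH15 (0.0915), against a median of 0.561. The 12 arrays share the 2 out of place, which lie with the other folate level in all of these profiles.

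**Figure D3:**
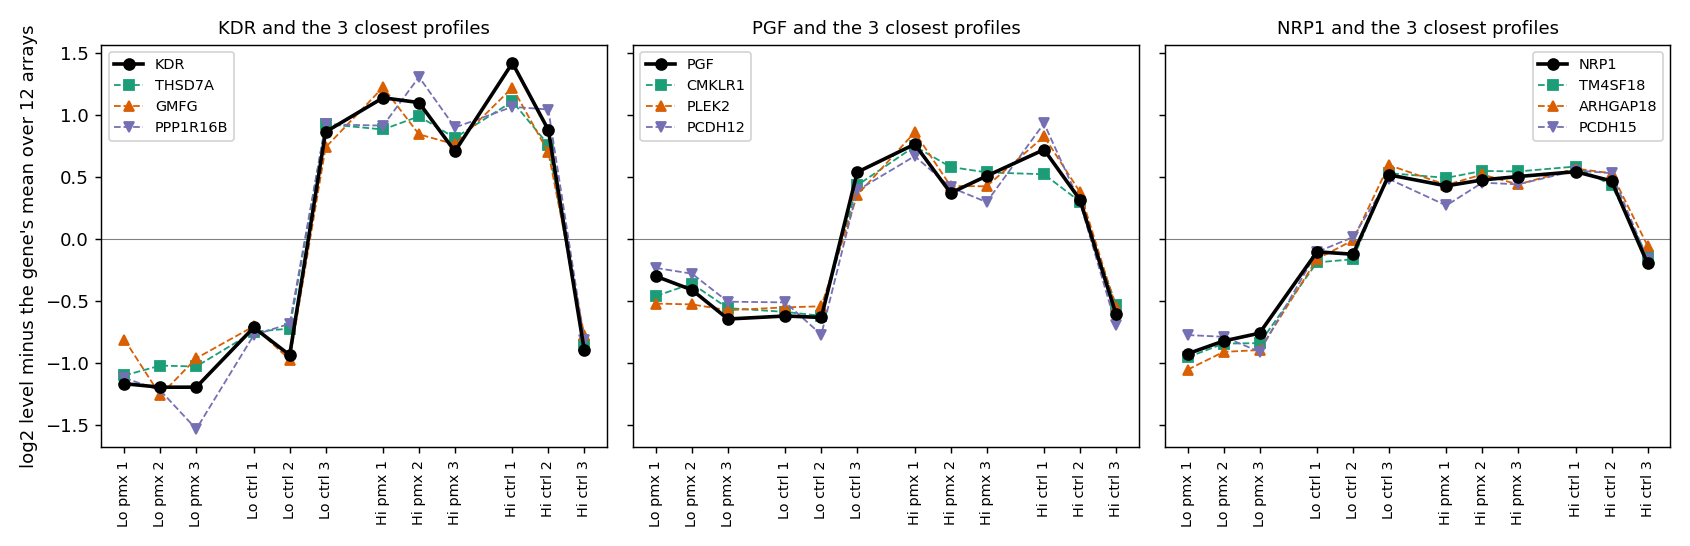
Log2 level minus the mean of the gene over 12 arrays, for KDR, PGF and NRP1 (black) and the 3 genes closest to each, with arrays along the x axis by group and replicate label (pmx, pemetrexed; ctrl, control). KDR and PGF are split by folate level, NRP1 has a further step down on the Lo pemetrexed arrays, and the arrays labelled Lo ctrl 3 and Hi ctrl 3 lie with the other folate level.

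The wider pathway was described by 7 lists of genes, from which the 10 members were left out. For pemetrexed in Lo cells the counts below stand beside 5.60% of all genes higher and 5.14% lower, and over 10 arrays beside 5.21% and 5.74%. In Lo pemetrexed against Lo control cells, 0 of 11 measured other ligands (further VEGFs, angiopoietins and class 3 semaphorins) passed the test, with a median log2 change of 0.17, where the median of all genes was 0.02. Over 10 arrays these medians were 0.07 and 0.03. Of 12 co-receptors and receptor phosphatases 1 was higher and 1 lower. The semaphorin receptor PLXNA4 fell by 0.74 ± 0.09 (limma adjusted p = 2.14e-04) and PLXNA3 of the same family rose by 0.65 ± 0.14 (limma adjusted p = 0.0104). Of 30 signalling adaptors and kinases 2 were higher and 2 lower. SH2D2A, an adaptor that binds KDR, rose by 1.72 ± 0.20 (limma adjusted p = 2.26e-04), and it also passed the interaction at 2.11 ± 0.29. The SRC family kinase FYN (-0.31 ± 0.08) and the focal adhesion kinase PTK2 (-0.41 ± 0.11) fell, and the kinase MAP2K1, named after its value was seen, rose by 0.35 ± 0.10. FYN and PTK2 each lost the call without Lo control replicates 2 or 3 or any Lo pemetrexed array (limma adjusted p up to 0.0948 and 0.121). MAP2K1 did not pass without any of 8 single arrays (up to 0.193) or over 10 arrays (limma adjusted p = 0.144). Over 10 arrays 2 co-receptors were higher and 4 lower, 1 other ligand was lower, and 1 adaptor was higher and 3 lower.

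Of 21 genes known to be induced by VEGF in endothelial cells, 6 were higher and 1 lower in Lo pemetrexed than in Lo control cells, with a median of 0.18, and over 10 arrays 7 were higher and 1 lower, with a median of 0.15. EGR1, an immediate early transcription factor, rose by 2.04 ± 0.28, the ERK phosphatase gene DUSP5 by 0.65 ± 0.06 and the nuclear receptor NR4A3 by 0.55 ± 0.07. The lower gene was APLN (-0.48 ± 0.14), a peptide ligand named after its value was seen, whose call was lost without any of 8 single arrays (limma adjusted p up to 0.129). Many genes of this list respond to other stimuli as well. Of 25 endothelial transcription factors 1 was higher and 5 lower, with a median of -0.02. KLF4 rose by 0.64 ± 0.06, while HHEX fell by 0.68 ± 0.10 and the ETS factor ERG by 0.69 ± 0.11. FLI1 (-0.59 ± 0.12), ELF2 (-0.68 ± 0.16) and MEF2C (-0.63 ± 0.18), named after their values were seen, were the other 3 lower genes. ELF2 lost its call without Lo control replicate 3 or Lo pemetrexed replicate 3 (limma adjusted p up to 0.0808), and MEF2C without any of 6 single arrays (up to 0.145). Over 10 arrays 1 was higher and 5 were lower, with a median of 0.04.

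Of 18 regulators of VEGFA 2 were higher and 1 lower, and over 10 arrays 2 were higher and 0 lower. The transcription factors TFAP2A (0.40 ± 0.08) and STAT3 (0.30 ± 0.07) rose, and HNRNPL, an RNA-binding protein of the VEGFA transcript, fell by 0.25 ± 0.07. HNRNPL did not pass over 10 arrays (limma adjusted p = 0.0706) or without any of 5 single arrays, and STAT3 not without Lo control replicate 3 or Lo pemetrexed replicates 1 or 3 (up to 0.0708). Of 21 genes for the processing and trapping of ligands 3 were higher and 2 lower, and over 10 arrays 4 and 2. CCBE1, which promotes the cleavage that activates VEGFC, fell by 1.25 ± 0.15 (limma adjusted p = 2.21e-04), the proprotein convertase PCSK5 rose by 0.81 ± 0.12 and the protease MMP3 by 0.60 ± 0.10. The other called genes of this list were MMP2 (-0.35 ± 0.08) and MMP9 (0.39 ± 0.09), named after their values were seen. Without Lo pemetrexed replicate 3 neither of these passed (limma adjusted p = 0.0571 for MMP2), and MMP9 also did not pass without Lo pemetrexed replicate 1 (up to 0.0559).

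**Figure D4:**
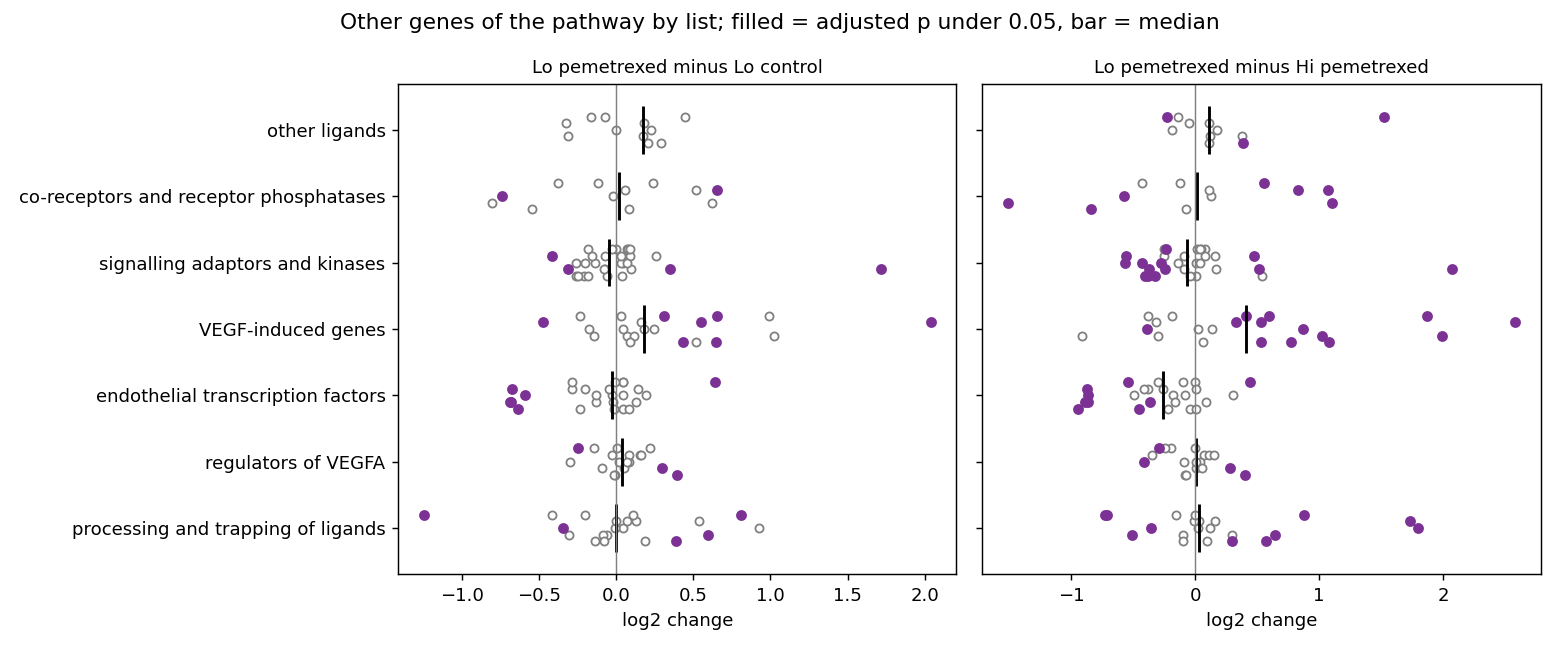
Log2 change of each measured gene of the 7 pathway lists in Lo pemetrexed against Lo control cells and in Lo pemetrexed against Hi pemetrexed cells, over 12 arrays. Each point is a gene, filled where the adjusted p was under 0.05, and the bar is the median of the list; the VEGF-induced genes have medians of 0.18 and 0.41.

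In Lo pemetrexed against Hi pemetrexed cells, 12 of 21 VEGF-induced genes were higher and 1 lower, with a median of 0.41, where 11.3% of all genes were higher and 11.0% lower. EGR1 (2.58 ± 0.28), DUSP5 (0.59 ± 0.06) and NR4A1 (0.77 ± 0.10) had the smallest p. Over 10 arrays 12 of them were higher and 4 lower. Of 25 endothelial transcription factors 1 was higher and 8 lower, with a median of -0.26, led by HHEX (-0.89 ± 0.10), ERG (-0.86 ± 0.11) and FLI1 (-0.87 ± 0.12). Over 10 arrays 13 of them were lower and 2 higher. Of 12 co-receptors and phosphatases 4 were higher and 3 lower, with PLXNA4 at -0.58 ± 0.09, the integrin subunit ITGB3 at 1.11 ± 0.19 and PLXNA3 at 0.83 ± 0.14. Of 30 adaptors and kinases 3 were higher and 10 lower, led by SH2D2A (2.07 ± 0.20), PTK2 (-0.56 ± 0.11) and MAP2K1 (0.52 ± 0.10). Of 11 other ligands the semaphorins SEMA3C (1.52 ± 0.37) and SEMA3B (0.39 ± 0.12) were higher and ANGPT1, the agonist of TEK, was lower (-0.23 ± 0.07). The ANGPT1 call was lost without any of 6 single arrays (limma adjusted p up to 0.153) and the SEMA3B call without any of 5 (up to 0.122). Of 18 VEGFA regulators TFAP2A (0.40 ± 0.08) and STAT3 (0.28 ± 0.07) were higher, while HNRNPL (-0.30 ± 0.07) and the hypoxia factor HIF1A (-0.42 ± 0.09) were lower, and over 10 arrays 4 regulators were lower. STAT3 was named after its value was seen. Of 21 processing and trapping genes 6 were higher and 4 lower, led by PCSK5 (0.88 ± 0.12), MMP3 (0.64 ± 0.10) and the plasminogen activator PLAT (1.80 ± 0.32).

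Markers of the endothelial parent also differed between Lo pemetrexed and Hi pemetrexed cells. The marker ERG, and PROX1 of the lymphatic markers given further below, are also in the list of endothelial transcription factors above, so these lists are not separate. The mean log2 level of 14 endothelial marker genes outside the set was 10.28, 10.19 and 10.05 on the Lo pemetrexed arrays, against 10.45, 10.37 and 10.98 on the Lo control arrays. It was 11.15, 10.98 and 10.95 on the Hi pemetrexed arrays, against 11.11, 10.93 and 10.40 on the Hi control arrays. The highest Lo control and the lowest Hi control were the 2 arrays out of place, and without them every Lo array was below every Hi array. In Lo pemetrexed against Lo control cells 5 of the 14 were lower and 0 higher, where 5.14% of all genes were lower, and over 10 arrays 6 were lower (5.74%). In Lo pemetrexed against Hi pemetrexed cells 10 were lower and 0 higher, where 11.0% of all genes were lower. In Lo control against Hi control cells 0 were called with all arrays and 6 were lower over 10 arrays, where 3.50% of all genes were lower.

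The mean of 16 epithelial and lung carcinoma markers was 7.98, 7.97 and 7.97 on the Lo pemetrexed arrays, against 7.98, 7.91 and 7.78 on the Lo control arrays. It was 7.81, 7.76 and 7.84 on the Hi pemetrexed arrays, against 7.78, 7.74 and 8.03 on the Hi control arrays. Here too the lowest Lo control and the highest Hi control were the 2 arrays out of place, and without them every Lo array was above every Hi array. Such a mean can rest on few genes. In Lo pemetrexed against Hi pemetrexed cells the median change of the 16 was only 0.04. There AKR1B10 was far higher and ALDH1A1 was lower, as given below. In Lo pemetrexed against Lo control cells 0 of the 16 were higher and 1 lower (5.60% and 5.14% of all genes). Over 10 arrays the counts were 1 and 1 (5.21% and 5.74%). In Lo pemetrexed against Hi pemetrexed cells 2 were higher and 1 lower (11.3% and 11.0% of all genes). Over 10 arrays these were 4 and 1 (13.7% and 14.0%). In Lo control against Hi control cells 0 were called with all arrays (0% of all genes). Over 10 arrays 3 were higher and 0 lower (3.67% and 3.50%). The part of these markers in the results above was not tested, and in bulk RNA fewer cells of a kind and less RNA per cell cannot be told apart.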

How the data were processed

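Total RNA of 12 EA.hy 926 cultures, isolated with an RNeasy kit, had been hybridised as biotin-labelled target to Affymetrix arrays, per the labels' protocols. The authors deposited log2 values, 1 per probe set and array, from RMA in Partek 6.5, per the submitters' processing notes. The settings of RMA are not given in the sources used here. The table held 33297 probe sets. A single symbol was paired with 19460 of them and several symbols with 1754, and 12083 were unnamed here. Symbols were checked by Entrez identifier against RefSeq (19429 found). Among the resulting 18417 genes, 769 had several probe sets and were read from the brightest, and there was no further normalization.

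Group means were estimated over 12 arrays with limma 3.58.1 (R 4.3.3; lmFit, then eBayes; 8 degrees of freedom left), with 5 two-sided contrasts at a Benjamini-Hochberg adjusted p of 0.05. Over the 10 arrays without the controls labelled replicate 3 it had 6. The same code was tested on simulated data. The p-values measure the spread between replicates of 1 cell line. All 10 members were named whatever their p, as were up to 3 called genes of each list with the smallest p. The members, lists, motifs and alternatives were chosen with earlier results of these data known. With all 12 arrays, deviations from the group means of same-numbered arrays correlated across genes at -0.656 to 0.514, and 11 of 18 pairs were above 0.1, so no pairing was taken there. These correlations include the 2 arrays out of place. Over the other 10 arrays all 13 pairs were above 0.1 (0.115 to 0.543) and 8 of 10 arrays matched their own number best, so fits with the replicate number as a block are given where they change a call over those arrays.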

Additional observations from a re-analysis of the deposited data

Results flagged for a closer look

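The response to pemetrexed differed between Lo and Hi cells for 3 members by the test of the difference itself, the interaction. The Lo response minus the Hi response was 1.04 log2 units for VEGFA, where the Lo response was 0.85 and the Hi response -0.19. All 3 Lo pemetrexed arrays lay above the Lo controls for this gene. The 3 Hi pemetrexed arrays lay below the Hi controls by a small margin, at most 8.401 against at least 8.410. That Hi response did not pass the test, and 2.96% of all genes were likewise lower without overlap there. The difference between the responses was -0.63 for TEK, where the Lo response was -0.65 and the Hi response -0.02. It was -1.13 for NRP1, where the Lo response was -0.93 and the Hi response 0.20. The Hi response of NRP1 rests in part on the array labelled Hi control replicate 3, and without both arrays out of place the NRP1 difference was -0.69. No group had more than 3 arrays, so single arrays were not tested as outliers within a group.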

How the results depend on the processing

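No called direction of a member turned in any alternative. Of 985 values of single members under the alternatives, 939 kept their side of the threshold, 24 came to pass it and 22 lost it. Leaving out 1 array gave 3 to 4 members called for pemetrexed in Lo cells, 0 to 0 for pemetrexed in Hi cells and for low folate in control cells, 5 to 9 for low folate in treated cells and 2 to 3 for the interaction. It gave 1170 to 2563, 0 to 0, 0 to 0, 2855 to 4607 and 443 to 956 called genes in the same order. The fewest members in treated cells, 5, came without Lo pemetrexed replicate 3. Gene counts fell by over 1.5 times for pemetrexed in Lo cells without Lo control replicate 3 (1210) or Lo pemetrexed replicates 1 (1282) or 3 (1170). For the interaction they fell likewise without Hi pemetrexed replicates 2 (506) or 3 (539), Lo control replicate 3 (572) or Lo pemetrexed replicates 1 (568), 2 (584) or 3 (443). Without both arrays out of place 5 members and 1320 genes were called for low folate in control cells. With the replicate number as a block and all 12 arrays, 3 members were called for pemetrexed in Lo cells. The same fit called 7 for low folate in treated cells and 2 for the interaction. NRP1 missed the interaction call (limma adjusted p = 0.0523), and PGF missed the call in treated cells (limma adjusted p = 0.0630). In each of these comparisons more of all genes were called with the block than without it, while the members called were no more. The block together with the 10 arrays called 5 members and 3385 genes for pemetrexed in Lo cells (VEGFC and NRP2 besides VEGFA, TEK and NRP1), 6 members and 2422 genes for low folate in control cells (TIE1 besides the 5, limma adjusted p = 0.0461), 6554 genes for low folate in treated cells and 1738 for the interaction. With trend and robust moderation PGF in treated cells did not pass (limma adjusted p = 0.0796). The cause of these shifts was not tested. Dim genes are limited by an unknown background.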

Other observations

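Some markers of other cell kinds also passed between Lo pemetrexed and Hi pemetrexed cells, named by the smallest p and chosen after their values were seen. The counts below stand beside 11.3% of all genes higher and 11.0% lower. Whether these lists were called more often than other genes was not tested. Of 16 epithelial and lung carcinoma markers 2 were higher and 1 lower, and 13 did not pass, with a median of 0.04. The reductase gene AKR1B10, high in lung carcinoma, was higher (2.82 ± 0.59, limma adjusted p = 0.00483), as was the epithelial adhesion gene EPCAM (0.38 ± 0.12), whose call was lost without Hi pemetrexed replicates 1 or 2 or Lo pemetrexed replicates 2 or 3 (limma adjusted p up to 0.161). ALDH1A1, a further carcinoma marker, was lower (-1.24 ± 0.14, limma adjusted p = 1.003e-04). Of 5 lymphatic endothelial markers outside the set, the secreted glycoprotein gene RELN was higher (1.62 ± 0.29) and PROX1, the regulator of lymphatic fate, was lower (-0.55 ± 0.15), a call lost without Hi pemetrexed replicates 1 or 3 or Lo pemetrexed replicates 2 or 3 (limma adjusted p up to 0.0749). Of 7 leukocyte markers 1 passed, LCP1 (1.52 ± 0.23), and of 12 fibroblast and smooth muscle markers ACTA2 (0.81 ± 0.15) and CNN1 (0.38 ± 0.10) were higher. The CNN1 call was lost without Hi pemetrexed replicates 2 or 3 or Lo pemetrexed replicates 1 or 3 (limma adjusted p up to 0.0629).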
